A study of Homo sapiens with 4 samples.

Results

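The ZNF genes outside chromosome 19, that is, protein-coding genes named ZNF and a number, were examined as they were recovered by a miR-28-5p pull out from DU-145 cells, a human prostate carcinoma line. Members were coding RefSeq transcripts with such a symbol and a locus on any other chromosome, a Cufflinks status of OK in all 4 libraries, and FPKM summed per gene. This gave 568 transcripts of 256 genes on 20 chromosomes, among 18729 coding genes in the series, beside 240 ZNF genes on chromosome 19. Of the 256 genes, 198 passed the filter of a mean scaled FPKM of at least 0.5, 58 did not, and 28 of those were listed at 0 in every library. The rule used names and positions only and no measured value.

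Both arms came from DU-145 cells transfected with 60 nM of a miR-28-5p duplex, so both received additional miR-28-5p. The miR-28CT arm (2 libraries) received an untagged duplex, and the miR-28BIO arm (2 libraries) received a mix of duplexes tagged with biotin and carrying a thiouridine at nucleotide 8 or 18. After 24 h, cells of both arms were exposed to ultraviolet light of 365 nm at 2 J/cm2, which crosslinks thiouridine to nearby RNA, and 15 µg of RNA was held on streptavidin beads for 4 h. The RNA that the beads kept was sequenced, so a value here is a level among retained RNAs and not a level in the cell, and the miR-28CT libraries show what the beads keep without a tag.

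Zinc finger proteins of the C2H2 type bind DNA, and in some cases RNA, through repeated small loops held by a zinc ion. Many also carry a KRAB domain, which recruits the corepressor TRIM28 and through it histone methylation by SETDB1 and heterochromatin proteins. Others activate transcription, and a few that bear the ZNF name act in ribosome assembly, ubiquitin or SUMO transfer, splicing or mitosis. KRAB genes arose by repeated duplication and often sit in clusters of close relatives. A microRNA guides Argonaute to messenger RNAs, mostly in the 3′UTR, by pairing through its first nucleotides.

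Over all genes tested, libraries resembled each other more by replicate number than by arm, which over the members held for number 1 but not for number 2. Over the 198 tested members, Pearson's r of log2 levels was 0.81 between the libraries numbered 1 of both arms and 0.67 between those numbered 2, against 0.55 within miR-28CT and 0.69 within miR-28BIO, and over all 10388 genes tested it was 0.88, 0.86, 0.69 and 0.70. The ratio of coverage to FPKM places the total behind the FPKM at an estimated 13.0 to 17.9 M reads per library, and the listed transcripts account for 5.46 to 7.43 M. Coverage gives the tested members a median of about 117 reads per gene and library, with 15 members under 10 in at least 1 library. The epithelial markers KRT8, KRT18, EPCAM and CDH1 lay between 0.857 and 99.4 scaled FPKM, while PTPRC, PECAM1 and KLK3 were listed at 0 in every library and COL1A1 and ALB did not exceed 0.211. KRT8 and EPCAM were lower in both miR-28BIO libraries than in both miR-28CT libraries, while the arms overlapped for KRT18 (log2 difference -1.07) and CDH1 (0.17), and the part of such differences in the results below was not tested.

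The ZNF genes outside chromosome 19 tended to a higher difference between miR-28BIO and miR-28CT than genes without a ZNF name, and their levels were lower (median 2.29 against 4.39 scaled FPKM). A few members stood far above the rest, but no single gene passed the test. Values are FPKM divided by a library factor (scaled FPKM) and differences are miR-28BIO minus miR-28CT on the scale of log2(scaled FPKM + 0.1), which understates changes of low genes. With limma and Benjamini-Hochberg adjustment over all 10388 genes tested, 0 members were called higher and 0 lower at an adjusted p of 0.05, as were 0% of all genes in each direction. At an unadjusted p under 0.05, 9 members were higher (2.31% of all genes) and 1 was lower (0.741% of all genes). The median difference was 0.13 in the members (quartiles -0.25 and 0.53), -0.09 in all genes tested and 0.17 in the 177 tested ZNF genes of chromosome 19. A single library could move this median: without miR-28CT replicate 2 it was 0.03, without miR-28BIO replicate 1 it was also 0.03, and without miR-28BIO replicate 2 it was 0.35.

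Both miR-28BIO values exceeded both miR-28CT values in 40 of the 198 members (20.2%), where all genes tested gave 12.3%. In 12 members (6.06%) both lay below, against 13% of all genes. The filter took the mean of all 4 libraries, so a gene could pass it only through the arm where it was high. With no filter, 45 of 228 members lay above (19.7%, against 12.7% of all genes) and 14 below (6.14%, against 12.1%). Without scaling of the libraries, 45 members lay above and 7 below, beside 15.6% and 8.57% of all genes. With a gap of at least 2-fold between the arms, 8 members were above (2.38% of all genes) and 1 was below (1.11% of all genes). When the replicate number entered limma as a block, 9 members were called higher and 2 lower, beside 2.66% and 2.32% of all genes, but no label ties a number to a shared culture. The ZNF genes of chromosome 19 gave 36 of 177 above (20.3%) and 6 below (3.39%), so the members did not stand apart from them in the first share. Of the 40, 7 belong to the list of enriched transcripts published with the study, which was chosen on these libraries and is no independent evidence. The paper took that list from Cuffdiff calls. By qRT-PCR of pull out samples it also measured a group of transcription factor targets that includes ZNF22 and ZNF25, and reports most of the group as enriched. Without the 7 listed genes 33 of 191 members lay above (17.3%) and the median difference was 0.12. Because 2 libraries were compared with 2, an exact permutation test of one gene could not give a two-sided p below 0.333.

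**Figure D1:**
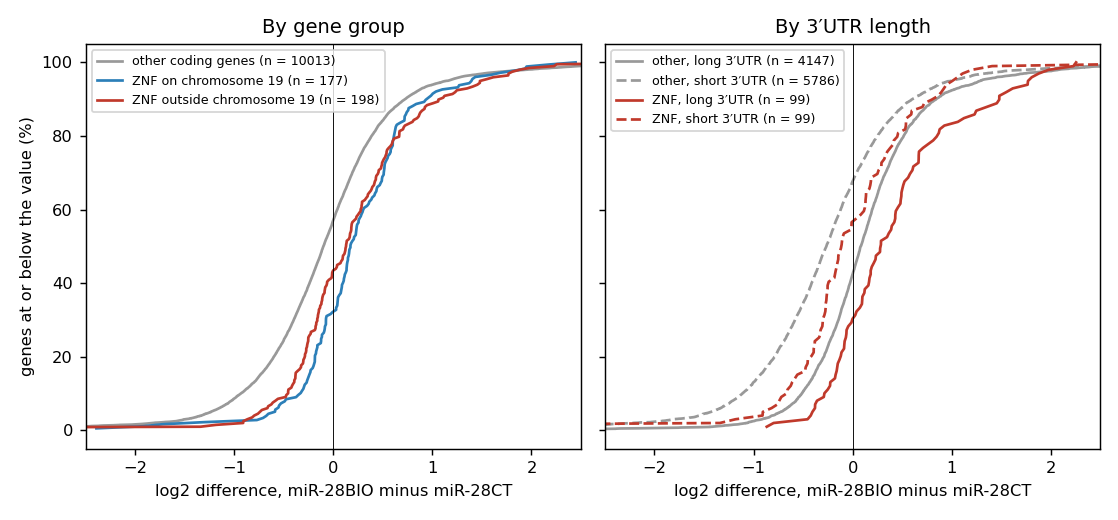
Cumulative share of tested genes (y axis, percent) by log2 difference between miR-28BIO and miR-28CT (x axis, cropped at both ends); the left panel compares other coding genes, ZNF genes of chromosome 19 and ZNF genes elsewhere, and the right panel splits other genes and ZNF genes outside chromosome 19 at a 3′UTR length of 1706.5 bases. Both ZNF curves run to the right of the curve of other genes, with medians of 0.17 and 0.13 against -0.10, and in the right panel long-3′UTR genes run to the right of short-3′UTR genes in both groups.

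ZNF22, a C2H2 factor studied in tooth development, was the member with the highest mean level over the 4 libraries and the largest positive difference. In the miR-28CT libraries alone 19 other tested members had a higher mean than ZNF22, led by ZNF593 at 27.7 scaled FPKM. On hg38 ZNF22 spans positions 45000825 to 45005329 of chromosome 10, plus strand. Its scaled FPKM were 7.41 and 4.90 in miR-28CT replicates 1 and 2, and 71.9 and 102.9 in miR-28BIO replicates 1 and 2. Means were 6.16 ± 1.78 (SD, n = 2) for miR-28CT and 87.4 ± 21.9 (SD, n = 2) for miR-28BIO, and the replicates of each arm lay much closer to each other than to the other arm. The log2 difference was 3.81 (limma, standard error 0.50, adjusted p = 0.845), and it stayed between 3.54 and 4.13 when each library was left out in turn. Of its 50-base windows, 36.6% also occur in other genes, most often in CEP164P1, a pseudogene on the opposite strand. Reads of ZNF22 and CEP164P1 may thus be mixed where strand was not used.

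ZNF436, a KRAB zinc finger gene on the minus strand of chromosome 1, had 2.39 and 1.98 scaled FPKM in the miR-28CT libraries and 9.27 and 12.5 in the miR-28BIO libraries. Its log2 difference was 2.25 (limma, standard error 0.43, adjusted p = 1.00). ZNF33B, on the minus strand of chromosome 10 from 42589107 to 42638544, had 1.77 and 1.07 against 7.59 and 6.15, a difference of 2.23. In both genes the lower miR-28BIO value was over 3 times the higher miR-28CT value. ZNF33A, a close paralog of ZNF33B on the other arm of the chromosome that shares 7.15% of its 50-base windows with other genes, had 4.01 and 2.20 against 10.2 and 7.04, a difference of 1.48.

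ZNF106, an RNA-binding protein, had 6.73 and 3.80 scaled FPKM in the miR-28CT libraries and 21.6 and 16.5 in the miR-28BIO libraries, with a difference of 1.88. ZNF25, a KRAB zinc finger gene, had 0.980 and 0.516 against 2.80 and 2.56, with a difference of 1.77. Both genes showed arms that did not overlap, and ZNF25 was low in both of them, with about 21.0 reads in miR-28CT replicate 2. ZNF395, a factor known to bind regulatory DNA of the huntingtin gene, had 2.43 and 5.90 against 8.44 and 21.6, with a difference of 1.81 that was 1.15 without miR-28BIO replicate 2. Its replicates lay further apart than those of ZNF106, the libraries numbered 2 being higher in each arm. Of its 50-base windows, 41.8% also occur in other genes, most often in FBXO16, a neighbour on the same strand with at most 0.870 scaled FPKM. ZNF496, which carries SCAN and KRAB domains and binds the histone methyltransferase NSD1, had 2.60 and 5.88 against 6.82 and 15.1, so its arms were separated by less than the spread within them. Its difference of 1.35 was 0.80 without miR-28CT replicate 1 and also 0.80 without miR-28BIO replicate 2.

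ZNF736 and ZNF326 completed the 8 members with the largest positive differences among those whose arms did not overlap. ZNF736, a KRAB gene on chromosome 7, had 0.413 and 0.441 scaled FPKM in miR-28CT and 1.31 and 1.75 in miR-28BIO libraries. ZNF326, part of the DBIRD complex that links transcription and splicing, had 4.93 and 1.57 against 11.0 and 5.80, so its lowest miR-28BIO value was just above its highest miR-28CT value. Its difference of 1.48 was 2.29 without miR-28CT replicate 1 and 0.70 without miR-28CT replicate 2. Adjusted p was 1.00 (limma) for each of the genes in this and the preceding paragraph.

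**Figure D2:**
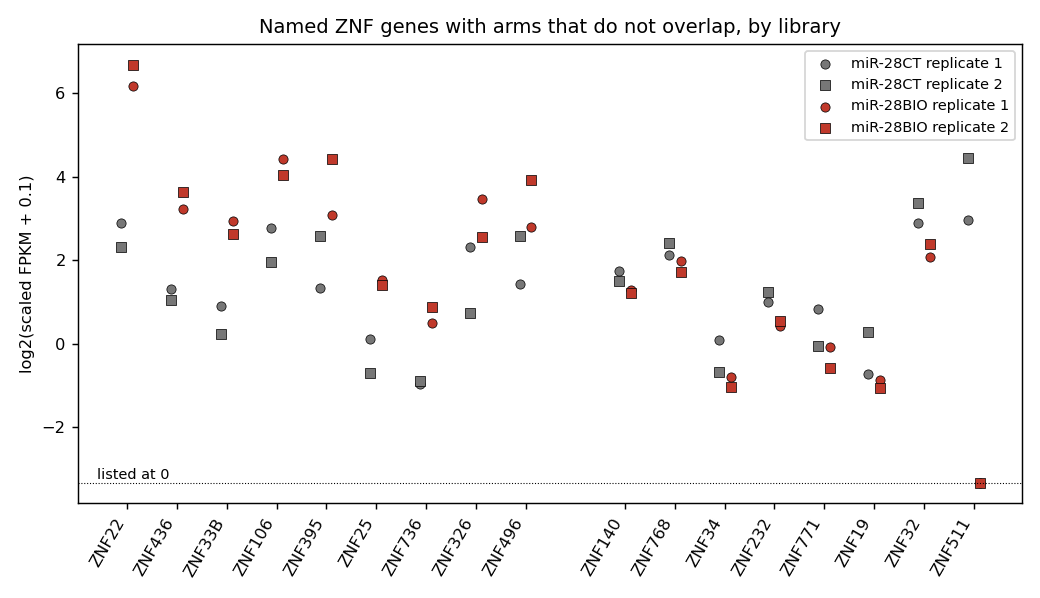
Level of each named gene whose arms did not overlap, as log2(scaled FPKM + 0.1) on the y axis, with 1 point per library (grey for miR-28CT, red for miR-28BIO, circles for replicate 1, squares for replicate 2). ZNF22 at the left has both red points above 6 on this scale and both grey points below 3, the group at the right has red points below grey ones, and ZNF511 is listed at 0 in both miR-28BIO libraries.

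The members with lower values in the miR-28BIO libraries differed less, apart from ZNF511. ZNF511 spans positions 133308919 to 133313162 of chromosome 10, plus strand, had 7.68 and 22.002 scaled FPKM in the miR-28CT libraries and was listed at 0 in both miR-28BIO libraries (limma, adjusted p = 0.845), so no fold is given. TUBGCP2, a gamma-tubulin complex gene that overlaps it on the opposite strand, had 6.72 and 13.2 in miR-28CT and 13.4 and 38.7 in miR-28BIO libraries. It thus ran the other way within each replicate number, and how reads of the overlap were divided was not tested. ZNF511 shares 44.3% of its 50-base windows with other genes, most often with the readthrough gene ZNF511-PRAP1.

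ZNF32, on chromosome 10, had 7.37 and 10.2 scaled FPKM in miR-28CT and 4.11 and 5.12 in miR-28BIO libraries, a difference of -0.91. Among members whose arms did not overlap, the next largest negative differences were those of ZNF19 (-0.74), ZNF771 (-0.72), ZNF232 (-0.62), ZNF34 (-0.61), ZNF768 (-0.42) and ZNF140 (-0.38), all with an adjusted p of 1.00 (limma). Their order is not firm, since single libraries moved most of them. Like ZNF511, ZNF19 and ZNF34 passed the filter of 0.5 only through their miR-28CT values. Without miR-28CT replicate 1 the difference was -1.22 for ZNF19, -0.26 for ZNF771 and -0.24 for ZNF140. Without miR-28CT replicate 2 it was -1.15 for ZNF771, -0.98 for ZNF34 and -0.25 for ZNF768, and without miR-28BIO replicate 2 it was -0.45 for ZNF771 and -0.27 for ZNF768. ZNF140, a KRAB repressor, had 3.28 and 2.76 against 2.33 and 2.24. ZNF140 shares 81.6% of its 50-base windows with other genes, most often with ZNF891. That member, on the opposite strand, ran the other way, at 1.11 and 0.787 against 1.58 and 1.39.

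The members with the highest levels, ZNF22 apart, showed overlapping arms. ZNF207, a spindle protein that binds BUB3, had 27.0 and 18.998 scaled FPKM in miR-28CT and 23.9 and 16.9 in miR-28BIO libraries. ZNF24, a SCAN domain protein, had 28.5 and 17.3 against 21.3 and 13.2, and ZNF664 had 24.0 and 12.03 against 28.7 and 17.3. In these genes the libraries numbered 1 were the higher ones in each arm. ZNF593, which acts in ribosome assembly, had 9.94 and 45.4 against 3.68 and 18.8, so the libraries numbered 2 were higher there and each miR-28BIO value was lower than the miR-28CT value of its number. Its log2 difference was -1.34 (limma, standard error 1.16, adjusted p = 1.00), and it ran from -2.48 to -0.16 when each library was left out.

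The members with a listed role gave 1 of 21 with arms that did not overlap in the higher direction, ZNF326 (4.76%, against 12.3% of all genes), and 0 in the lower (13% of all genes). The 7 chromatin proteins had a median difference of 0.12 (range -0.38 to 0.41). Among them ZNF217, an oncoprotein that works with the CoREST corepressor, had 10.7 and 7.75 scaled FPKM in miR-28CT and 11.5 and 9.17 in miR-28BIO libraries. ZNF638, which takes part in silencing with the HUSH complex, spread far more, at 13.8 and 2.84 against 15.7 and 4.47. ZNF644, a partner of the G9a methyltransferase, spread in the same way, at 10.4 and 2.85 against 11.4 and 3.32. ZNF445, which maintains imprints, had 1.43 and 1.08 against 1.44 and 1.27. ZNF687 and ZNF592 had differences of -0.38 and -0.23, and ZNF827 had one of 0.03 at levels near the filter.

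The 6 genes listed as activators had a median difference of -0.12 (range -0.56 to 0.23). ZNF143, which binds promoters of many housekeeping genes, had 5.52 and 3.37 scaled FPKM in miR-28CT and 4.39 and 2.77 in miR-28BIO libraries, and its paralog ZNF76 had 2.13 and 3.13 against 2.01 and 2.88. ZNF410, known for activating CHD4, had 11.6 and 13.4 against 6.21 and 20.4, so its miR-28BIO values lay on either side of both miR-28CT values. ZNF281, ZNF148 and ZNF335 had differences of -0.08, 0.23 and -0.56. Among the 5 genes of the ribosome, ubiquitin and SUMO list the median was -0.18, with ZNF598, the ubiquitin ligase of collided ribosomes, at 0.54 and ZNF451, a SUMO ligase, at 0.43. ZNF622, another ribosome assembly factor, had -0.58 and ZNF746 had -0.18. ZNF346, a protein that binds double-stranded RNA, had a difference of 0.18. None of the 21 had an unadjusted p under 0.05 (limma), and the direction of many of them turned when 1 library was left out.

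The proteins that KRAB zinc fingers recruit were described from a list of 14 genes, of which 14 were tested and 0 were called (limma). Their median difference was -0.04, and it ranged from -0.29 to 0.44 when each library was left out, so that it had no steady sign. In 1 gene of the 14 both miR-28BIO values lay above and in 1 both lay below, shares of 7.14% each beside 12.3% and 13% of all genes. TRIM28, the KRAB corepressor, had 19.8 and 91.3 scaled FPKM in miR-28CT and 13.6 and 40.2 in miR-28BIO libraries. CBX5, a heterochromatin protein, was the only one of the 14 with both miR-28BIO values above both miR-28CT values, at 13.4 and 11.3 against 10.4 and 6.18. SETDB1 was the only one with both below, at 7.36 and 5.62 against 9.52 and 7.61.

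Chromosome 10 held the members with the largest differences of both signs. Of its 15 members 14 were tested, 7 had both miR-28BIO values above both miR-28CT values (50%) and 2 had both below, and their median difference was 0.81. The 405 tested genes of chromosome 10 without a ZNF name had a median of -0.06, with 13.1% above and 15.1% below. The 7 were ZNF22, ZNF33B, ZNF25, ZNF33A, ZNF37A, ZNF438 and ZNF248, and ZNF248, ZNF25, ZNF33A and ZNF37A lie together between 37828763 and 38124625. Within that stretch, ZNF37A had 4.96 and 2.06 scaled FPKM in miR-28CT and 11.2 and 5.35 in miR-28BIO libraries, and ZNF248 had 1.88 and 1.13 against 3.46 and 2.01. The median stayed positive when each library was left out (0.57 to 1.21). Chromosome 10 was singled out after its values were seen, and 3 of the 7 belong to the published list.

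Other chromosomes with many members gave smaller medians. The 25 tested members of chromosome 7 had a median of -0.06 with 2 above (8%) and 0 below, where other genes of that chromosome gave 14.4% and 12.2%. The 24 of chromosome 16 had one of -0.12 with 2 above (8.33%) and 4 below (16.7%), where other genes gave 8.78% and 11.7%. The 18 of chromosome 1 had a median of 0.03, with 5 above (27.8%) and 0 below, where other genes gave 12.9% and 14.8%. On chromosome 5, 1 of 7 tested members had a positive difference, beside 4523 of all 10388 genes tested. The median of these members was -0.26, with 0 above and 0 below, where other genes of that chromosome gave -0.04, 13.8% and 11.7%.

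**Figure D3:**
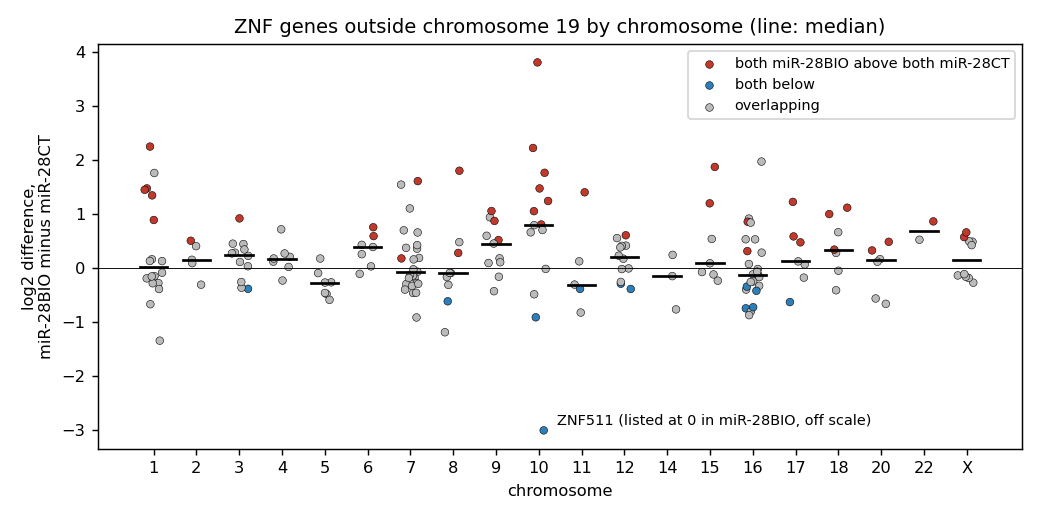
Log2 difference between miR-28BIO and miR-28CT (y axis) of each tested member by chromosome (x axis), with the median of each chromosome as a line; red marks both miR-28BIO values above both miR-28CT values and blue both below. Chromosome 10 has 7 red points and the highest median among chromosomes with over 5 tested members, 0.81, and ZNF511 is drawn at the lower edge.

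Members with a long 3′UTR had higher differences than members with a short one, as did coding genes in general. When the 198 members were split at their median 3′UTR length of 1706.5 bases, the 99 long ones had a median of 0.28, with 28 above (28.3%) and 3 below (3.03%), and the 99 short ones had a median of -0.11, with 12 above (12.1%) and 9 below (9.09%). Split at the same length, 4341 coding genes had a median of 0.09 with 19.1% above and 8.18% below, and 5967 had one of -0.26 with 7.37% above and 16.5% below. The median of the members was the higher one in either class. The split also separated GC content, with medians of 42.1% in long and 48.7% in short members and of 43.4% and 52.3% in coding genes, and its part in the contrast was not tested. The distance between long and short members, 0.40, was 0.10 without miR-28CT replicate 2 and 0.06 without miR-28BIO replicate 1. Spearman's rho of the difference with 3′UTR length was 0.34 across members and 0.36 across 10308 coding genes, which share the same 4 libraries and are not independent. With the length of the whole transcript it was 0.30 and 0.43, so 3′UTR length was not the closer measure over all coding genes. ZNF22 itself has a 3′UTR of 1283 bases and lies among the short ones.

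GC content went with the difference between replicate numbers and, less closely, with that between arms. Both libraries numbered 1 were above both numbered 2 in 80 members (40.4%, against 33.2% of all genes tested), and below in 47 (23.7%, against 34.7%). Spearman's rho of that difference with the GC content of the transcript was -0.67 across members and -0.68 across coding genes. Members above in the libraries numbered 1 had a median GC content of 41.6%, and those below one of 58.6%. ZNF593, at 63.8% GC, had a log2 difference between numbers of -2.25, and ZNF644, at 35.9%, had one of 1.79. For the difference between arms, rho with GC content was -0.30 across members and -0.24 across coding genes.

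**Figure D4:**
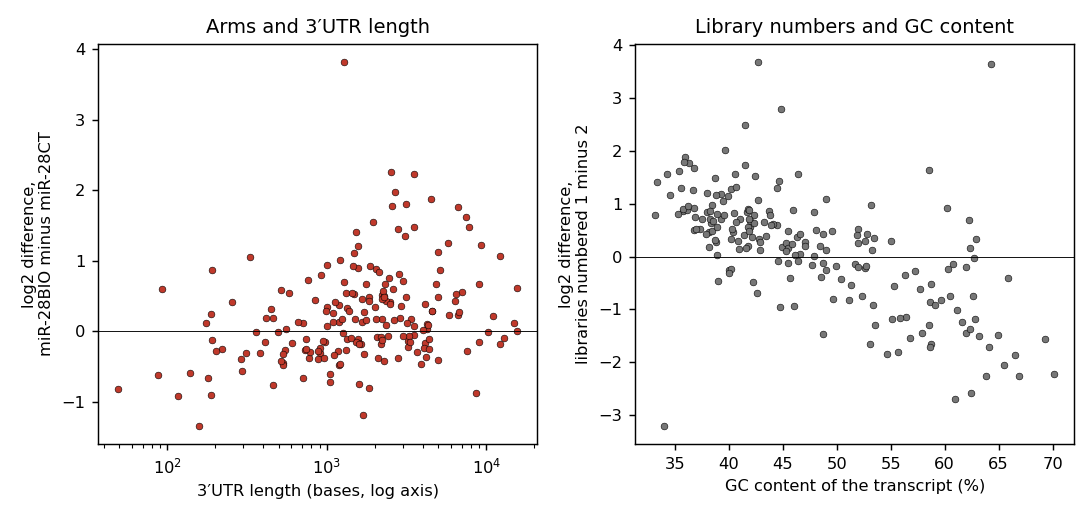
Left, log2 difference between miR-28BIO and miR-28CT (y axis) against 3′UTR length (x axis, log scale) of the tested members without ZNF511; right, log2 difference between libraries numbered 1 and numbered 2 (y axis) against GC content (x axis, percent) of all tested members. The points rise weakly to the right in the left panel (Spearman's rho 0.34 with ZNF511 included) and fall in the right panel (-0.67).

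Within each replicate number the median of the members was slightly above that of all genes tested. The libraries are the same 4, so this is no separate result. The median difference was 0.10 in the libraries numbered 1 and 0.14 in those numbered 2, against -0.07 and -0.08 over all genes tested. In 89 members (44.9%) the miR-28BIO value was the higher one within both numbers, against 30.4% of all genes tested, and in 55 (27.8%) it was the lower one in both, against 40.5%. ZNF22 had 3.26 and 4.36 within numbers 1 and 2, ZNF436 had 1.91 and 2.59, and ZNF496 had 1.36 and 1.34. A few members went apart between numbers, among them ZNF276, with -0.96 and 4.91. This gene was listed at 0 in miR-28CT replicate 2, so the 4.91 depends on the 0.1 added to each value. It is 1 of 6 tested members with a value of 0 in some library.

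**Figure D5:**
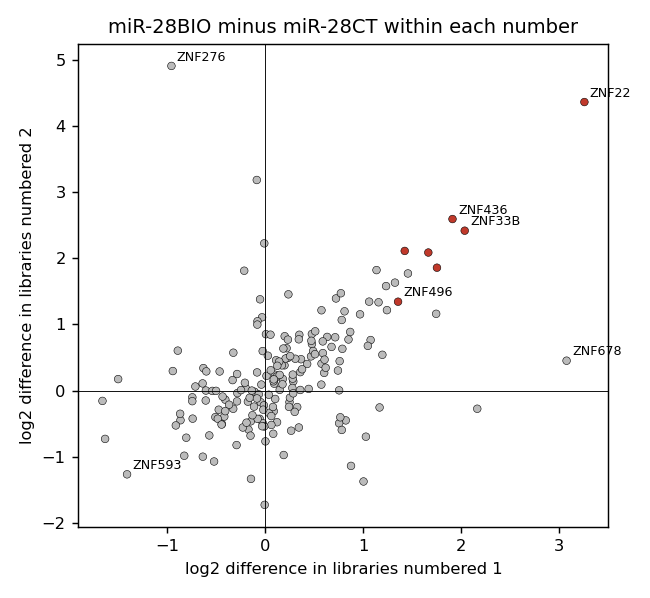
Log2 difference between miR-28BIO and miR-28CT in the libraries numbered 1 (x axis) and numbered 2 (y axis), 1 point per tested member without ZNF511, with genes of the published list in red. The red points lie in the upper right, led by ZNF22 at 3.26 and 4.36, ZNF593 lies in the lower left, and ZNF276 lies apart at the top.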

How the data were processed

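The authors checked the reads with FASTQC 0.10.1, aligned them to hg38 with TopHat2 2.0.9 and estimated transcript abundance with Cufflinks 2.1.1. They deposited, per library, FPKM, the bounds of the Cufflinks interval, the coverage signal and the length of 53209 RefSeq transcripts. Cuffdiff needs reads and was not repeated. The series text counts 3 untagged samples, while the methods and the sample records give 2 per arm, all of which were analysed. Names came from a RefSeq table (97.1% of transcripts). Here FPKM were summed per gene, divided by median-of-ratios factors (11369 genes), filtered at a mean of 0.5 and compared as log2(value + 0.1) with limma 3.58.1 (R 4.3.3, eBayes with a trend, no block). The methods call the replicates biological, the labels do not say whether they are separate cultures, and p-values measure only the spread between these libraries. Reads per gene are given only as an approximation, coverage times length over the read length of 50 bases. Lengths, GC content and shared 50-base windows came from canonical GENCODE 44 transcripts. The members and gene lists were chosen with earlier results of these data known. The genes named are the published list, the 8 largest differences of each sign among members with arms that do not overlap, the 5 highest levels and genes with listed roles; others were named after their values were seen. One gene of the marker lists is not reported here. Matches to miR-28-5p and protein features, planned at first, were not analysed here. Simulated data held 200 changed genes among 10388, with log2 changes of 2 or 3 in either direction. With the real spread 0 of them were called, and with 0.05 of that spread 200 were, beside 7 unchanged genes. The simulated libraries varied independently, whereas same-numbered libraries here deviated together. Python 3.11.15, numpy 2.4.6, pandas 2.3.3 and matplotlib 3.10.9 were used.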

Additional observations from a re-analysis of the deposited data

Results flagged for a closer look

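Non-coding RefSeq transcripts of the same genes were not part of the sums. Of 9 such transcripts that reached the 0.5 filter, 2 had both miR-28BIO values above both miR-28CT values, as did 11.3% of all 1583 non-coding transcripts past the filter. One belongs to ZNF107 and was listed at 0 in both miR-28CT libraries and at 0.848 and 3.49 scaled FPKM in the miR-28BIO libraries, a difference of means of 2.17. The other belongs to ZNF267 and was listed at 0 in both miR-28CT libraries and at 1.49 and 1.71 in the miR-28BIO libraries, a difference of 1.60. Both reached the filter only through the miR-28BIO libraries in which they were higher. Neither was tested, and no fold is given against values of 0.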

How the results depend on the processing

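The settings were other pseudocounts (0.01 and 1), filters, scalings, limma without a trend, the replicate block, the highest transcript of a gene, wider separation of the arms and leaving out each library. Primary chromosomes only, the split by 3′UTR length and the settings of the chromosome 10, partner and members-minus-all medians were added after seeing the data. Matches to miR-28-5p were not run. With replicate number entered as a block, limma called 276 genes higher and 241 lower, against 0 and 0 without it, and 9 members higher and 2 lower, against 0 and 0. The members were ZNF22, ZNF33A, ZNF33B, ZNF37A, ZNF106, ZNF395, ZNF436, ZNF496 and ZNF652, and the lower ones ZNF511 and ZNF593. Same-numbered libraries deviated together from the arm means (r = 0.745 across genes), but no label says that a number marks a shared culture, and with 2 pairs the pairing is not established. In every fit that left out a library 0 members were called, and the lower calls over all genes ranged from 0 to 3.

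The median difference of the members was 0.076 with a pseudocount of 1, 0.29 without scaling, which moves the median of all genes to 0.076, and 0.20 with upper quartile scaling. Its distance to all genes was 0.14 with a pseudocount of 1 and 0.16 without a filter. The distance between long and short 3′UTRs was 0.26 with a pseudocount of 1, 0.34 without a filter, 0.33 with a filter of 1 and 0.47 with the highest transcript. The chromosome 10 median was 0.50 with a pseudocount of 1, and the partner median was 0.13 without scaling. Arms at least 2-fold apart left 8 members higher and 1 lower (2.38% and 1.11% of all genes), Cufflinks intervals apart left 17 and 7 (5.22% and 6.06%), and without scaling 7 were lower (8.57% of all genes). When each library was left out in turn, the ranges were 0.027 to 0.35 for the members' median, 0.066 to 0.38 for its distance to all genes, 0.063 to 0.52 for the 3′UTR distance, 0.57 to 1.21 for chromosome 10 and -0.29 to 0.44 for the partners. With 1 library in an arm, 63 to 94 members lay above (32% to 48.2%, against 25.1% to 33.3% of all genes) and 37 to 49 below (18.9% to 24.9%, against 27.9% to 38.5%), where fewer values have to separate.

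Among the 39 named genes 21 kept their sign in every fit that tested them. ZNF19, ZNF34, ZNF736, ZNF771 and ZNF827 were not tested with a filter of 1, nor was ZNF34 without miR-28CT replicate 1 or ZNF19 without miR-28CT replicate 2. Without scaling it turned for ZNF207 (0.0024), ZNF76 (0.068), ZNF281 (0.092) and ZNF410 (0.029), and with the highest transcript for ZNF664 (-0.11) and ZNF638 (-0.043). Leaving out 1 library turned 18, whose ranges were -0.41 to 0.10 for ZNF207, -0.63 to 0.067 for ZNF143, -0.40 to 0.28 for ZNF281, -1.14 to 0.0082 for ZNF622, -0.16 to 0.57 for ZNF346, -0.088 to 0.90 for ZNF664, -0.041 to 0.42 for ZNF217, -0.73 to 1.11 for ZNF644, -1.02 to 0.29 for ZNF687, -0.69 to 1.55 for ZNF638, -0.053 to 0.32 for ZNF445, -0.35 to 0.18 for ZNF76, -0.43 to 0.92 for ZNF148, -1.18 to 0.10 for ZNF335, -0.97 to 0.72 for ZNF410, -0.10 to 1.00 for ZNF451, -0.49 to 0.064 for ZNF592 and -0.47 to 1.58 for ZNF598. The sign held but the size did not for ZNF24 (-0.74 to -0.028), ZNF746 (-0.31 to -0.0059) and ZNF827 (0.0078 to 0.077). The cause was not tested. Counting error was not calculated, and 15 tested members had under 10 approximate reads in at least 1 library.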
